A study of Caenorhabditis elegans with 12 samples.

Results

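The fbxc row is a run of 10 neighbouring F-box genes near the left end of C. elegans chromosome IV, from fbxc-1 (starting at 891239) to fbxc-8 (ending at 913167). Counts of H3K9me3 over all 10 were lower in both mutants, hrde-1 and hrde-2, than in wild-type animals, and the row was chosen by that fall. Its members are the chromosome IV rows of the deposited tables whose exons all lie in this stretch and whose summed exon length is at least 300 bases. They are 10 of the 46760 genes in the files, and all 10 passed the filter on low counts. Because the fall against wild-type selected them, their mutant against wild-type values and counts of calls are given below as a description, with no p-value. The hrde-2 against hrde-1 comparison was not used in the choice and was tested.

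The series measured trimethylation of histone H3 lysine 9 (H3K9me3), a mark of silenced chromatin, by CUT&Tag, a method that brings a transposase to the bound antibody so that DNA around it is tagged and sequenced. The hrde-1 mutants carry the allele hrde-1(tm1200), in the gene of HRDE-1, a nuclear Argonaute protein that small RNAs guide to nascent transcripts in the germline. The hrde-2 mutants carry hrde-2(qe20), in the gene of HRDE-2, a partner of HRDE-1 in the study. Wild-type animals were the reference for both. All were day 1 adults, about 68 h after L1 arrest at 20 °C, and the methods state that the nuclei were isolated from the germline, whereas the labels give whole worm. Each genotype had 3 biological replicates with the H3K9me3 antibody and 1 control library, called IgG in the labels although the methods describe it as made without primary antibody. The study states that the antibody also bound H3K27me3 and H4K20me3, so counts called H3K9me3 here can include those marks. Counts of a chromatin mark do not measure transcripts, so the germline origin of the nuclei was not checked against marker genes.

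F-box proteins are adaptors: the F-box motif binds a Skp1-related protein (SKR in C. elegans), which joins a cullin and a RING protein in the SCF ubiquitin ligase, while the rest of the F-box protein picks the substrate. C. elegans has an expanded set of F-box genes, many of them in clusters of close copies, in classes named fbxa, fbxb and fbxc. Individual roles of the 10 members are left out here.

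All 10 members are annotated as protein-coding and lie on the plus strand. They are 5 tandem units, each holding a shorter gene followed by a longer one. The shorter genes, with 1128 exon bases each, are fbxc-1 (WBGene00016649, IV, 891239 to 892614), fbxc-2 (WBGene00016648, 895391 to 896766), fbxc-4 (WBGene00016647, 899543 to 900918), fbxc-5 (WBGene00016646, 903696 to 905071) and fbxc-3 (WBGene00019073, 907848 to 909223). The longer genes other than fbxc-8, with 1413 exon bases each, are fbxc-9 (WBGene00045301, 892806 to 894586), fbxc-10 (WBGene00045300, 896958 to 898739), fbxc-11 (WBGene00045299, 901110 to 902891) and fbxc-12 (WBGene00045298, 905263 to 907044). The last longer gene is fbxc-8 (WBGene00019072, 909415 to 913167). In the files it has 2347 exon bases: its first 4 exons hold 1373, which is 40 fewer than in RefSeq, and its model adds 974 bases of exons between 911742 and 913167. Successive units start 4152, 4152, 4153 and 4152 bases apart. Coordinates are those of the files (WS258).

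The copies are nearly the same sequence, which bears on every value below. The 5 shorter genes differed at 2 of 1128 exon positions (99.82% to 100% identity over 10 pairs). With the RefSeq exons of fbxc-8, the 5 copies of the longer gene differed at 2 of 1413 positions (99.86% to 100% identity). The following stretches of 61 bases, read from the RefSeq WBcel235 genome and written 5′ to 3′ on the plus strand, hold those positions. They are shown because these are the only bases that differ between copies in the exons they share. The capital marks the position that varies. The first pair is in exon 2 at position 782 of the joined exons, and fbxc-5 has the letters of fbxc-1, while fbxc-4 and fbxc-3 have those of fbxc-2.
fbxc-1, chrIV:892195-892255: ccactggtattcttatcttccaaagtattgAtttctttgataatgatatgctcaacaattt
fbxc-2, chrIV:896347-896407: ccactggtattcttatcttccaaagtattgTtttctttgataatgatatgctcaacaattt
The same genes split the same way at position 902, also in exon 2.
fbxc-1, chrIV:892315-892375: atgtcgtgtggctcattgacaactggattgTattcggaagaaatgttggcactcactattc
fbxc-2, chrIV:896467-896527: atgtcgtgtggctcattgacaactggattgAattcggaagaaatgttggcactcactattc
Among the longer copies, fbxc-12 alone differed from the other 4, at position 423 in exon 2 and position 1174 in exon 3.
fbxc-9, chrIV:893243-893303: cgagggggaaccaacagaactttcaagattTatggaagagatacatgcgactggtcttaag
fbxc-12, chrIV:905700-905760: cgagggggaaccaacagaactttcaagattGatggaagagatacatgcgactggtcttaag
fbxc-9, chrIV:894269-894329: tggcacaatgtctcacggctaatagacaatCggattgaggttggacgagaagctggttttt
fbxc-12, chrIV:906727-906787: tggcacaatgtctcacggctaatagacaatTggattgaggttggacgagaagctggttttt

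Reads were 50 bases long, so the exons were cut into 50-base windows and each was looked up on both strands of the genome. In 8 of the 10 members, 100% of the windows occurred again. In fbxc-12 the share was 92.6%, with 90 windows found once, and in fbxc-8 it was 63.02%, with 741 windows found once. Most windows of the extra fbxc-8 exons occurred once, with 10.4% found again, and none of those repeats lay in the row. By comparison, 4.44% of the 31266 genes with at least 1 window had 90% or more of their windows repeated, and all 14 neighbouring rows within 30 kb had 0%. Reads from a repeated window can be placed at any copy, and whether reads with several equal hits were filtered out before counting is not given in the sources used here, so the per-gene counts of the 8 fully repeated members cannot be assigned to 1 gene each. Fragments were paired, and a pair can span more than 1 window, so these shares describe reads and not whole fragments. Reads that run from an exon into an intron are not covered by these shares. The repeats lay almost wholly within the row: at most 4.34% of the windows of any member occurred outside it. The sum over the row is therefore the least affected value, and it is given first.

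H3K9me3 over the whole row was lowest in hrde-1 mutants, intermediate in hrde-2 mutants and highest in wild-type. The sum over the 10 genes was 309, 394 and 286 CPM (counts scaled to a total of 1000000 counts on genes per library) in the 3 hrde-1 libraries. It was 414, 483 and 469 CPM in the 3 hrde-2 libraries and 794, 796 and 696 CPM in the 3 wild-type libraries. No library of any genotype overlapped those of another. The means were 329.9 ± 56.7 CPM in hrde-1 mutants, 455 ± 36.9 CPM in hrde-2 mutants and 762 ± 57.1 CPM in wild-type (SD, n = 3 each). The ratio of means was 0.433 for hrde-1 over wild-type and 0.598 for hrde-2 over wild-type. These comparisons share the wild-type libraries. The ratio of hrde-2 over hrde-1 means was 1.38. Fewer nuclei with the mark and less of the mark per nucleus cannot be told apart in such libraries.

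Scaling by TMM (edgeR's normalization factors) gave 332, 376 and 297 CPM in hrde-1 mutants, 394, 452 and 465 CPM in hrde-2 mutants and 758, 780 and 794 CPM in wild-type. With the 10 genes fitted as 1 feature, an alternative chosen after seeing the data, the log2 fold change was -1.21 ± 0.12 (SE) for hrde-1 over wild-type. It was -0.83 ± 0.12 for hrde-2 over wild-type and 0.38 ± 0.12 for hrde-2 over hrde-1. Without wild-type replicate 2, the shallowest library, the log2 ratio of mean CPM was -1.18 for hrde-1 over wild-type and -0.71 for hrde-2 over wild-type. The depth behind these sums was 2066 to 3277 counts per hrde-1 library, 2587 to 3375 per hrde-2 library and 1170 to 6069 per wild-type library.

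Per length, the row carried 24.2 ± 4.16 CPM per kb of exon in hrde-1 mutants, 33.4 ± 2.71 in hrde-2 mutants and 55.9 ± 4.18 in wild-type (SD, n = 3 each). The median of the 21310 tested genes of at least 300 exon bases was 19.0, 20.6 and 19.0 CPM per kb in the same order. The row stood at the 66.1st percentile of these genes in hrde-1 mutants, the 80.2nd in hrde-2 mutants and the 95.5th in wild-type. It was thus 1.27 times the median gene in hrde-1 mutants and 1.62 times in hrde-2 mutants, against 2.94 times in wild-type.

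**Figure D1:**
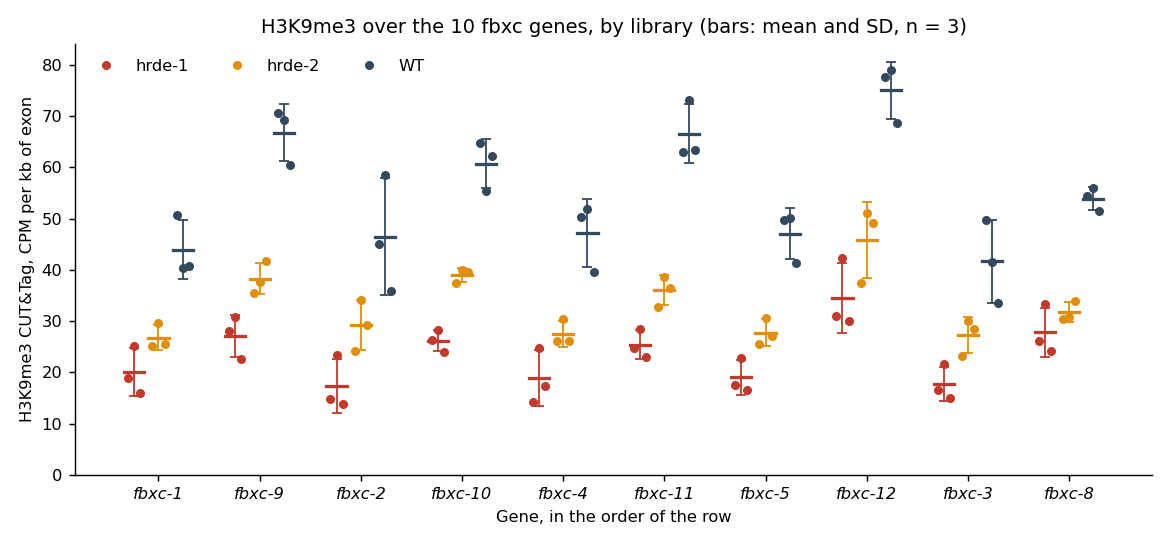
H3K9me3 in CPM per kb of exon (y axis) for each of the 10 genes in the order of the row (x axis). Points are libraries of hrde-1 mutants, hrde-2 mutants and wild-type, and bars are the mean and SD of 3 libraries. For every gene the wild-type points lie above those of both mutants.

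Each member followed the sum. Among the shorter genes, fbxc-1 had 21.4, 28.4 and 18.1 CPM in hrde-1 mutants, 28.3, 33.4 and 28.9 CPM in hrde-2 mutants and 57.1, 45.6 and 45.99 CPM in wild-type. fbxc-2 had 16.6, 26.5 and 15.6 CPM in hrde-1 mutants, 27.3, 38.4 and 33.0 CPM in hrde-2 mutants and 50.9, 66.0 and 40.4 CPM in wild-type. In both genes the wild-type libraries were above every mutant library, and fbxc-2 had the widest wild-type spread of the 10. fbxc-4 averaged 21.2 ± 6.16 CPM in hrde-1 mutants, 31.1 ± 2.88 in hrde-2 mutants and 53.3 ± 7.47 in wild-type. fbxc-5 averaged 21.4 ± 3.76, 31.3 ± 2.93 and 53.03 ± 5.60 CPM in the same order of genotypes. For fbxc-3 the means were 20.0 ± 3.84 CPM in hrde-1 mutants, 30.7 ± 3.96 in hrde-2 mutants and 46.95 ± 9.12 in wild-type (SD, n = 3 each). The means of the 5 shorter copies ranged from 19.5 to 22.6 CPM in hrde-1 mutants, from 30.2 to 32.9 CPM in hrde-2 mutants and from 46.95 to 53.3 CPM in wild-type.

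The longer genes had more counts with the H3K9me3 antibody, also per length. The wild-type IgG library did too, at 23.4 CPM per kb over the 4 longer copies other than fbxc-8 and 9.09 over the 5 shorter. H3K9me3 over IgG in wild-type was 2.87 for those longer copies and 4.98 for the shorter. The ratios rest on 31 and 12 IgG counts, so more mark on the longer genes is not shown. fbxc-11, with the largest fall in both mutants, had 35.0, 40.2 and 32.4 CPM in hrde-1 mutants, 46.4, 54.6 and 51.6 CPM in hrde-2 mutants and 89.1, 103 and 89.6 CPM in wild-type. fbxc-12 had 43.9, 59.8 and 42.4 CPM in hrde-1 mutants, 52.8, 72.2 and 69.4 CPM in hrde-2 mutants and 110, 112 and 96.9 CPM in wild-type. Its level per length was the highest of the row in every genotype, at 34.4 ± 6.81 CPM per kb in hrde-1 mutants, 45.8 ± 7.43 in hrde-2 mutants and 75.0 ± 5.61 in wild-type. fbxc-9 averaged 38.3 ± 5.85 CPM in hrde-1 mutants, 54.1 ± 4.39 in hrde-2 mutants and 94.3 ± 7.76 in wild-type. fbxc-10 averaged 37.0 ± 2.98, 55.02 ± 1.98 and 85.8 ± 6.83 CPM in the same order (SD, n = 3 each).

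fbxc-8 is the member with the most exon windows of its own. It had 61.1, 78.0 and 56.8 CPM in hrde-1 mutants, 71.5, 72.5 and 79.7 CPM in hrde-2 mutants and 128, 131 and 121 CPM in wild-type. Both mutants were below wild-type without overlap, while the libraries of the mutants overlapped each other. Its log2 fold change was -0.97 ± 0.12 (SE) for hrde-1 over wild-type, the smallest fall among the members in that comparison, and -0.86 ± 0.12 for hrde-2 over wild-type. It took 19.8% ± 0.046 of the row's counts in hrde-1 mutants, 16.4% ± 1.25 in hrde-2 mutants and 16.6% ± 0.654 in wild-type (SD, n = 3 each). The deposited counts are per gene, so its extra exons could not be read apart from its repeated ones.

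Over the members, the log2 fold change of hrde-1 over wild-type ran from -1.39 ± 0.13 (SE) in fbxc-11 to -0.97 in fbxc-8, with a median of -1.28. For hrde-2 over wild-type it ran from -0.97 ± 0.13 in fbxc-11 to -0.70 ± 0.15 in fbxc-3, with a median of -0.83. All 10 members were called lower in hrde-1 over wild-type (edgeR's quasi-likelihood test, Benjamini-Hochberg adjusted p under 0.05), against 0.572% of the 28691 genes tested. All 10 were also called lower in hrde-2 over wild-type, against 0.31% of genes. The libraries of the 10 members did not overlap between mutant and wild-type in either comparison, which held in the lower direction for 5.24% of all genes in hrde-1 and 3.21% in hrde-2. These counts describe the choice of the row and are no test of it. With total counts as the only scaling, 8 of the 10 were called in hrde-2, and the median of all genes then sat 0.10 above 0 on the log2 scale.

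The hrde-2 against hrde-1 comparison asks whether the mutants differed from each other. All 10 estimates were positive, from 0.11 ± 0.12 (SE) in fbxc-8 to 0.67 ± 0.17 in fbxc-2 on the log2 scale, with a median of 0.44. None of the 10 members was called at an adjusted p under 0.05 (edgeR), where 0.209% of all 28691 genes were called higher. DESeq2 also called 0, and 9 of the 10 had an unadjusted p under 0.05 in edgeR, where 3.25% of all genes were higher at that p. The smallest adjusted p was 0.0623, for fbxc-2, and the largest was 0.952, for fbxc-8 (edgeR). For fbxc-10 the log2 difference was 0.49 ± 0.13 with an adjusted p of 0.0901 (edgeR). The hrde-2 libraries lay above the hrde-1 libraries without overlap in 7 of the 10, against 11.6% of all genes. Since reads are shared among the copies, the members do not add up as 10 separate observations. Some other settings moved fbxc-2 past the threshold, among them the fit without hrde-1 replicate 2 (log2 difference 0.90, adjusted p 0.00768, edgeR) and the fit on the mutants alone (0.67, adjusted p 0.0186). It also passed without hrde-2 replicate 1 (adjusted p 0.0313, edgeR) and without wild-type replicate 2 (0.0426) or 3 (0.0196). fbxc-10 passed without wild-type replicate 3 (0.0326), on the mutants alone (0.0241) and with total counts alone (0.0205).

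**Figure D2:**
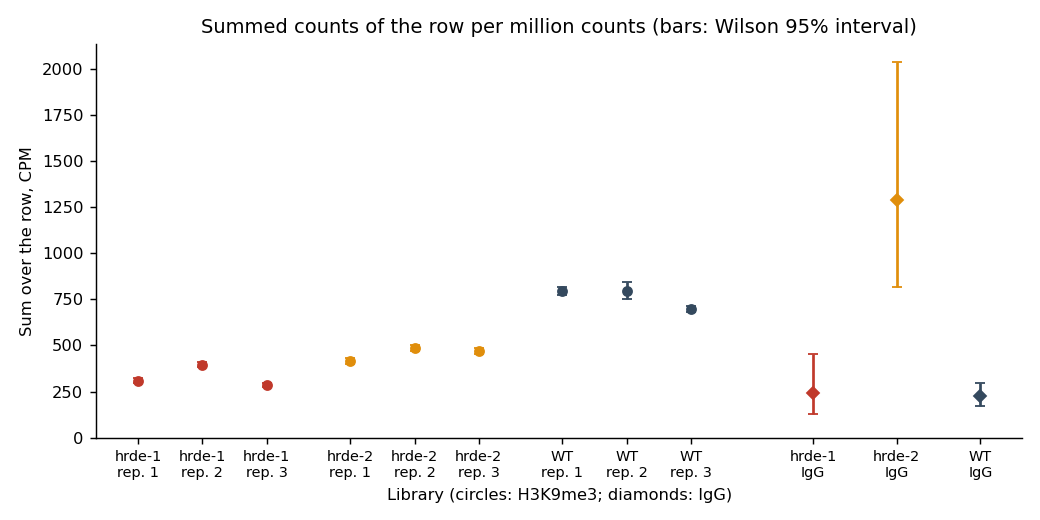
Sum of the row's counts in CPM (y axis) for each of the 12 libraries (x axis), with the Wilson 95% interval of the share as bars, which cover counting error only. The H3K9me3 libraries of hrde-1 mutants, hrde-2 mutants and wild-type are circles and the IgG libraries are diamonds. The hrde-2 IgG library, at 1290 CPM, rests on 18 counts.

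The IgG libraries were shallow, so they bound the background only loosely. The row had 9 counts of 37617 in the hrde-1 IgG library, 18 of 13950 in the hrde-2 IgG library and 53 of 233980 in the wild-type IgG library. In CPM these were 239 (Wilson 95% interval 126 to 455), 1290 (816 to 2039) and 226.5 (173 to 296). The mean H3K9me3 level over the IgG level was 1.38 in hrde-1 mutants, 0.353 in hrde-2 mutants and 3.36 in wild-type. The H3K9me3 mean was inside the IgG interval in hrde-1 mutants, below it in hrde-2 mutants and above it in wild-type. The hrde-2 IgG level was thus higher than that of any H3K9me3 library, wild-type included. With 1 IgG library per genotype these ratios have no replicate check, and a higher CPM in IgG is a share of a small library, not an amount.

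By gene, the 5 shorter copies had 0 counts together in the hrde-1 IgG library, which allows up to 79.8 CPM, 5 in the hrde-2 IgG library and 12 in the wild-type IgG library. The 4 longer copies other than fbxc-8 had 7, 10 and 31 in the same order, and fbxc-8 had 2, 3 and 10. fbxc-12, with the highest H3K9me3 level per length in the row, also had the most wild-type IgG counts of any member, 11. fbxc-3 had 0 counts in all 3 IgG libraries. Among the neighbours, Y55F3BR.2 averaged 212 CPM in hrde-1 mutants, 236 in hrde-2 mutants and 225 in wild-type with the H3K9me3 antibody. Its IgG levels were 159, 287 and 265 CPM in that order, resting on 6, 4 and 62 counts. These are shares of libraries of very different depth, so they do not compare the amounts of mark and background there.

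How evenly the copies shared the counts was read within each library. The counts of the 5 shorter genes had a variance over mean between 0.352 and 2.94 in the 9 H3K9me3 libraries, with a median of 0.882, where counting error alone gives about 1. The 4 longer genes other than fbxc-8 had a ratio between 1.13 and 16.3, with a median of 5.96. fbxc-12, the copy with exon windows of its own, had the highest count of those 4 in 8 of 9 libraries, and fbxc-10 in the other. As a share of the row, fbxc-12 took 14.7% ± 0.498 in hrde-1 mutants, 14.2% ± 1.22 in hrde-2 mutants and 13.9% ± 0.111 in wild-type (SD, n = 3 each). Apart from fbxc-8, the widest gap between genotype means was that of fbxc-11, which took 10.9% ± 0.65 in hrde-1 mutants, 11.2% ± 0.147 in hrde-2 mutants and 12.4% ± 0.991 in wild-type.

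**Figure D3:**
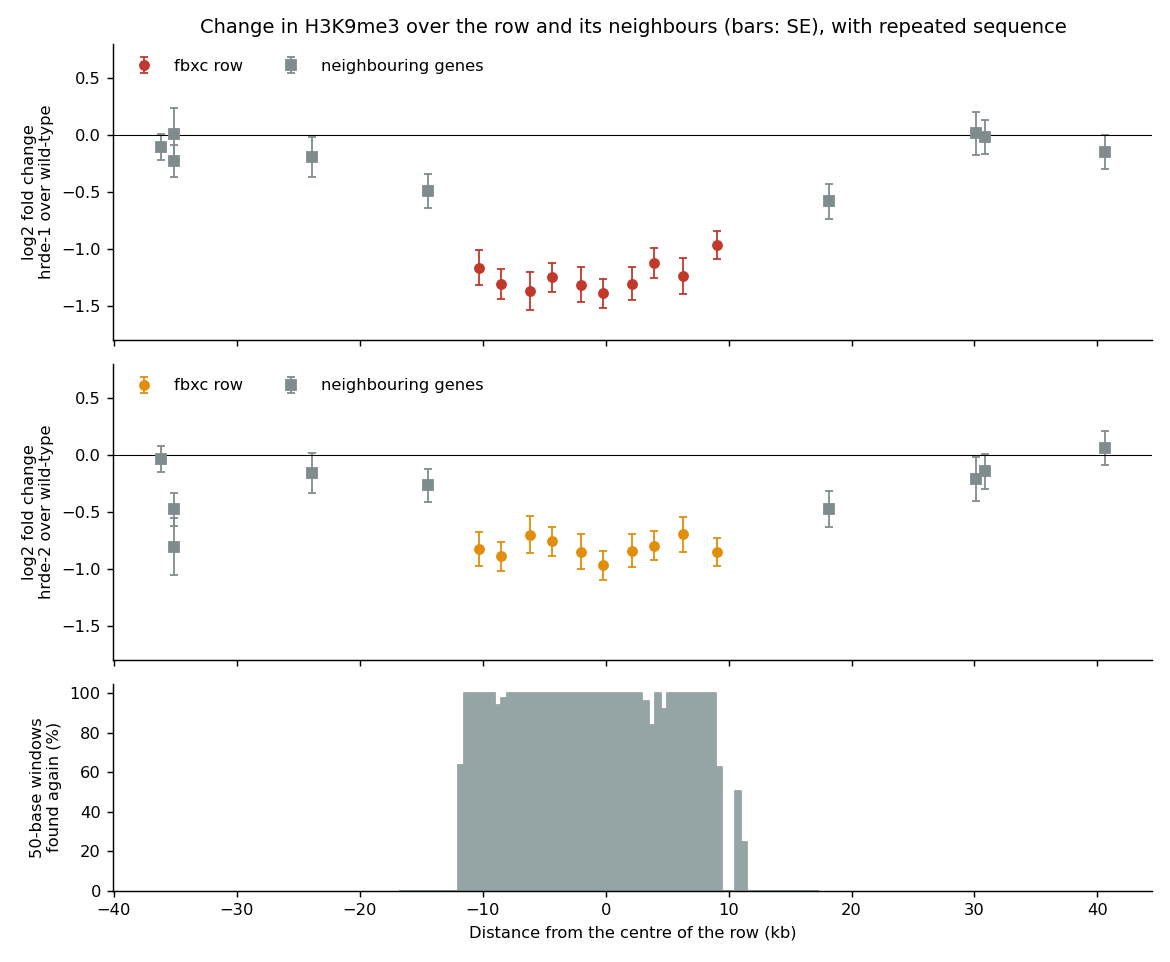
Log2 fold change of H3K9me3 (y axis) against distance from the centre of the row in kb (x axis), for hrde-1 over wild-type (top) and hrde-2 over wild-type (middle), with SE bars; circles are the 10 members and squares the 9 tested neighbours. The bottom panel gives the share of 50-base windows found again in the genome, which is high over the row as far as the extra exons of fbxc-8, where it reaches 0. That panel has values only from -16750 to 17250 bases from the centre. Of the tested neighbours it thus covers mak-2 alone, where the share is 0.

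The edges were described with the 14 rows within 30 kb, 8 before and 6 after, of which 9 passed the filter on low counts. Before the row, mak-2, a MAP kinase-activated protein kinase (885346 to 890200), had 27.4, 39.9 and 30.1 CPM in hrde-1 mutants, 41.6, 39.8 and 39.1 CPM in hrde-2 mutants and 44.5, 60.5 and 37.7 CPM in wild-type. Its libraries overlapped between each mutant and wild-type. The log2 fold change was -0.49 ± 0.15 (SE) for hrde-1 over wild-type and -0.27 ± 0.15 for hrde-2 over wild-type. After the row, F58H7.5 (919990 to 920808) had 34.0, 46.3 and 34.6 CPM in hrde-1 mutants, 37.4, 48.6 and 45.1 CPM in hrde-2 mutants and 49.1, 48.3 and 66.6 CPM in wild-type. Its hrde-1 libraries were below the wild-type ones without overlap, and its hrde-2 libraries overlapped them. The log2 fold change was -0.58 ± 0.16 for hrde-1 and -0.47 ± 0.16 for hrde-2. Without wild-type replicate 3 these values were -0.27 and -0.16.

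Further out, the values of the named genes were nearer 0. Y55F3BR.1 (874791 to 881910) changed by -0.20 ± 0.17 (SE) in hrde-1 and -0.16 ± 0.18 in hrde-2 on the log2 scale, and Y55F3BR.2 (857327 to 874724) by -0.11 ± 0.11 and -0.04 ± 0.11. On the other side lgc-30, a ligand-gated ion channel gene (924936 to 939667), had 0.02 ± 0.19 in hrde-1 and -0.21 ± 0.19 in hrde-2. F58H7.1 (930492 to 935699) had -0.02 ± 0.15 and -0.14 ± 0.15. The shallowest fall among the members was thus larger than the deepest among these neighbours of 300 or more exon bases in each mutant, which the choice of the row favours. The short non-coding Y55F3BR.9 (867056 to 867133) and Y55F3BR.17 (867080 to 867215) overlap each other, lie outside the naming rule and were picked after their values were seen. Y55F3BR.9 had 8.15, 7.73 and 11.1 CPM in hrde-2 mutants against 14.2, 19.0 and 13.1 CPM in wild-type, a log2 fold change of -0.81 ± 0.25. Y55F3BR.17 had 64.3, 54.1 and 68.1 CPM in hrde-2 mutants against 74.4, 91.1 and 80.05 CPM in wild-type, again without overlap, a log2 fold change of -0.48 ± 0.15. In hrde-1 over wild-type Y55F3BR.9 had 0.01 ± 0.23 and Y55F3BR.17 had -0.23 ± 0.14, and the libraries overlapped for each. In hrde-2 over hrde-1 none of the 9 neighbours was called (smallest adjusted p 0.191, Y55F3BR.9, edgeR), while 1 of the 9 had an unadjusted p under 0.05, against 6.44% of all genes in either direction.

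Other F-box genes were set beside the row. Of the 46 fbxc genes elsewhere, 40 lie on chromosome II, the nearest on chromosome IV is 2.01 Mb away, and 0 had 90% or more repeated windows. In hrde-1 over wild-type 1 of the 46 was called lower and 0 higher, with a median of -0.17 on the log2 scale, where the median of all 28691 genes was 0.01. An unadjusted p under 0.05 (edgeR) was found there for 11 of the 46, where 3160 of all 28691 genes passed. The called gene was fbxc-43 (II, 4234950 to 4235982), with 19.9, 22.4 and 25.8 CPM in hrde-1 mutants against 38.4, 42.8 and 35.1 CPM in wild-type. Its log2 fold change was -0.75 ± 0.16 (SE, adjusted p 0.00777, edgeR), and the call was lost without hrde-1 replicate 1 (adjusted p 0.0826), without replicate 2 (0.0558) and after thinning all libraries to the shallowest (0.0767). In hrde-2 over wild-type edgeR and DESeq2 called 0 of the 46, 6 had an unadjusted p under 0.05 in edgeR (9.3% of all genes did), and the median was -0.12. The smallest p there belonged to fbxc-19, with a log2 fold change of -0.52 ± 0.14 and an adjusted p of 0.0749 (edgeR). In hrde-2 over hrde-1 0 were called by either tool, 1 had an unadjusted p under 0.05 in edgeR, and the median was 0.04. All 10 members of the row lay below the lowest of the other fbxc genes in both comparisons with wild-type (-0.75 in hrde-1 and -0.62 in hrde-2), a pattern that the choice of the row favours.

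**Figure D4:**
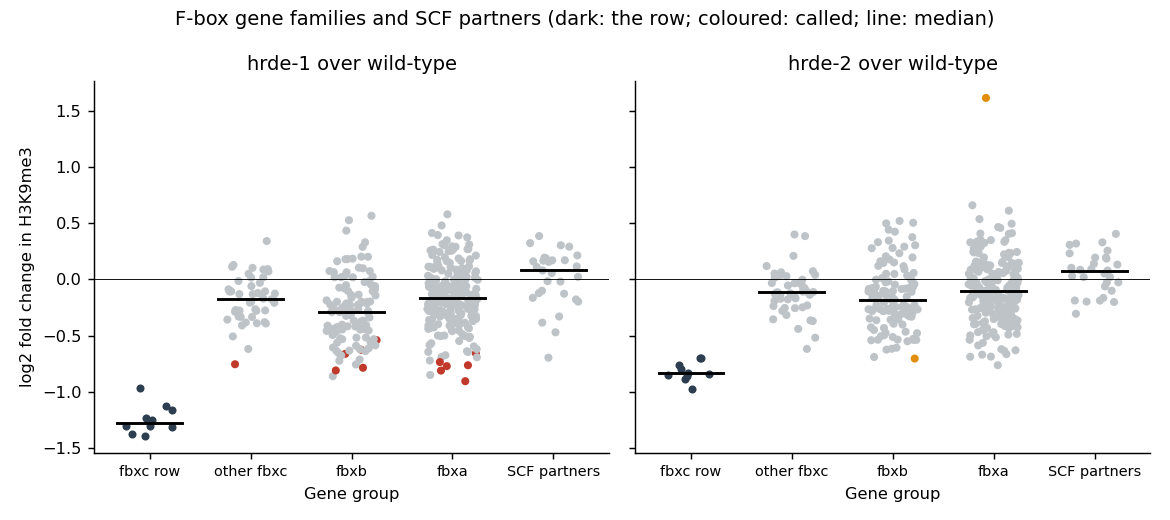
Log2 fold change of H3K9me3 (y axis) for each gene of 5 groups (x axis), for hrde-1 over wild-type (left) and hrde-2 over wild-type (right). Dark points are the row, coloured points other genes with an adjusted p under 0.05, grey points the rest, and lines the medians; SCF partners are centred near 0.08.

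The fbxa and fbxb families were counted in the same way. Of 221 fbxa genes tested, 6 were lower and 0 higher in hrde-1 over wild-type (median log2 fold change -0.17), and 1 was higher and 0 lower in hrde-2 over wild-type (median -0.10). The lower ones with the smallest p were fbxa-34 (-0.90 ± 0.19, adjusted p 0.00797, edgeR), fbxa-37 (-0.77 ± 0.17) and fbxa-222 (-0.73 ± 0.18). Of 112 fbxb genes, 5 were lower and 0 higher in hrde-1 (median -0.29), and 1 was lower in hrde-2 (median -0.18). fbxb-19 was the gene called in both, with -0.79 ± 0.16 (adjusted p 0.0055, edgeR) in hrde-1 and -0.70 ± 0.16 (0.0246) in hrde-2. fbxb-15 (-0.81 ± 0.18) and fbxb-53 (-0.54 ± 0.13) followed it in hrde-1. These calls were not stable to leaving out 1 library. Those of fbxa-34, fbxa-37, fbxa-222 and fbxb-15 were lost without wild-type replicate 1 or hrde-1 replicate 1 or 3 (edgeR adjusted p 0.0754 to 0.226). The fbxb-19 call was lost in hrde-1 without hrde-1 replicate 1 (0.0597) or 3 (0.0518), and in hrde-2 without wild-type replicate 1 or 2 or hrde-2 replicate 2 or 3 (0.065 to 0.183). That of fbxb-53 was lost without wild-type replicate 1 or 3, hrde-1 replicate 1 or 3, or hrde-2 replicate 2 or 3 (0.0525 to 0.289). The called share was 2.72% of fbxa genes and 4.46% of fbxb genes in the lower direction in hrde-1, against 0.572% of all genes. An unadjusted p under 0.05 (edgeR) was found for 40 fbxa and 52 fbxb genes in hrde-1 over wild-type, in either direction. The numbers were 35 and 29 in hrde-2 over wild-type, and 15 and 12 in hrde-2 over hrde-1. Of all 28691 genes, 3160, 2669 and 1849 passed in these comparisons. Of the 29 SCF partner genes (skr, cul and rbx genes), which supply the other subunits of the ligase, edgeR called 0 in each of the 3 comparisons, and the medians were 0.08, 0.08 and -0.01. At an unadjusted p under 0.05 there were 2, 0 and 2, where 3160, 2669 and 1849 of all 28691 genes passed.

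The 903 tested genes outside the row with 90% or more repeated windows were also counted. In hrde-1 over wild-type 6 were lower and 0 higher (0.664% lower, against 0.572% of all genes), with a median of -0.09 on the log2 scale. In hrde-2 over wild-type 13 were lower and 0 higher (1.44% lower, against 0.31% of all genes), with a median of -0.17. The part of repeated sequence in the row's values was not tested.

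The 5 genes outside the row whose levels over the 9 libraries were nearest to the row's were found by the root mean square difference of centred log2 CPM among 23955 genes. They were C08F1.10 (II, difference 0.15), the pseudogene Y73B3A.9 (X, 0.16), B0393.8 (III, 0.18), the non-coding ZC132.10 (V, 0.18) and C39B5.10 (III, 0.19). C08F1.10 had 32.7, 47.9 and 33.2 CPM in hrde-1 mutants, 39.5, 50.0 and 50.4 CPM in hrde-2 mutants and 65.4, 87.7 and 72.8 CPM in wild-type. Its mutant libraries all lay below wild-type, a pattern that picking genes by likeness to the row favours. Of the 5, B0393.8 had 100% repeated windows, Y73B3A.9 had 9.53% and the other 3 had 0%.

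Facts of the whole series that touch these values are few. Total counts were 1470699 to 8719542 in the H3K9me3 libraries, with wild-type replicate 2 the shallowest, and 13950 to 233980 in the IgG libraries. Nuclear rRNA genes took 13.2% to 24.6% of the H3K9me3 counts and 23.5% to 35.1% of the IgG counts. Over all genes edgeR called 54 higher and 164 lower in hrde-1 over wild-type, 53 and 89 in hrde-2 over wild-type, and 60 and 67 in hrde-2 over hrde-1. Other scalings changed these splits: in hrde-1 to 31 and 180 with DESeq2 and 21 and 160 without rRNA and mitochondrial genes, in hrde-2 to 99 and 34 with total counts alone. In hrde-2 over hrde-1 they gave 60 and 38 with DESeq2, 85 and 53 with total counts alone, and 56 and 29 without rRNA and mitochondrial genes. Without wild-type replicate 3 the splits were 151 higher and 150 lower in hrde-1 and 92 and 42 in hrde-2, and in hrde-2 they were 41 and 34 without hrde-2 replicate 1 and 29 and 21 without hrde-2 replicate 2. H3K9me3 counts over the exons of hrde-1 were 86.7, 88.4 and 94.8 CPM in hrde-1 mutants against 83.1, 87.7 and 86.7 CPM in wild-type. Those of hrde-2 were 25.6, 25.5 and 23.1 CPM in hrde-2 mutants against 24.7, 19.0 and 19.2 CPM in wild-type, so neither gene's counts check the genotype labels.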

How the data were processed

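The authors aligned CUT&Tag reads (paired, 50 bases) to the C. elegans WS258 genome with Bowtie2 and counted fragments per gene over exons with featureCounts (Subread 2.0.1). The deposited values are these counts, 1 table per library, with no use of strand. Removal of duplicates is not given in the sources used here. Nor is it given there whether reads with several equal hits were filtered by mapping quality before counting; by default Bowtie2 reports 1 position per read.

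Members and lists were chosen with earlier results of these data known. Gene names were taken by gene ID from the RefSeq annotation (46520 of 46760 IDs matched, all on the same chromosome). Some other annotations repeat names among these IDs.

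All genes were tested with edgeR 4.0.16 (R 4.3.3) on the counts of the 9 H3K9me3 libraries: TMM, filterByExpr with a minimum count of 10, quasi-likelihood test, genotype as the only term, Benjamini-Hochberg adjustment over 28691 genes, threshold 0.05. The test was also run on simulated data of 28485 genes, for hrde-1 over wild-type only. There, 191 of 200 genes changed by 1 log2 unit were recovered, with 8 false calls. The changed genes were drawn only from genes with higher mean counts, and every gene was given the same dispersion. The recovery thus does not cover genes with low counts or wider spread. Recovery in the 9 H3K9me3 libraries themselves was not tested. CPM is the count scaled to a total of 1000000 counts on genes. Intervals are Wilson 95% intervals, and a count of 0 allows up to 3 counts. Intervals and floors cover counting error only. No library pair was alike within sampling noise (lowest chi-square per degree of freedom 2.67 over 36 pairs).

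Alternatives were DESeq2 1.42.0, total counts alone, scaling without nuclear rRNA and mitochondrial genes, no filter, only the genotypes compared, thinning to 1470699 counts, a replicate block, leaving out each library, and, added after seeing the data, the row as 1 feature. Named genes were all members, the 3 nearest neighbours of at least 300 exon bases on each side, fbxc, fbxa, fbxb and SCF partner genes called (up to 5 or 3 per comparison, or, for fbxc, those with the smallest p), and the 5 genes nearest to the row's profile. IgG libraries entered no test. Proteins were not used here.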

Additional observations from a re-analysis of the deposited data

Results flagged for a closer look

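One F-box gene outside the row differed between the mutants by the test of that difference itself. fbxa-6 (III, 1271 to 3092) had 54.04, 46.97 and 38.8 CPM in hrde-2 mutants against 17.4, 18.03 and 13.4 CPM in hrde-1 mutants, a log2 fold change of 1.43 ± 0.16 (SE, adjusted p 1.44e-07, edgeR). It was higher in 3 of 3 hrde-2 libraries, and it stayed called under all 17 other settings run. Wild-type libraries had 15.8, 15.6 and 12.0 CPM, and hrde-2 over wild-type was 1.61 ± 0.17 (adjusted p 1.68e-07, edgeR). The IgG libraries held 4 counts on fbxa-6 in hrde-1 mutants, 0 in hrde-2 mutants and 4 in wild-type. These are too few to place its levels above background.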

How the results depend on the processing

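The row was chosen by its fall in both mutants, so its calls against wild-type are no test and only describe the choice. Copies that share reads are also not 10 separate calls. With that limit, in hrde-1 over wild-type all 10 members were called under every setting run. In hrde-2 over wild-type the number was 8 with total counts alone, 9 after thinning, 8 to 10 when 1 library was left out (8 without hrde-2 replicate 1 or 2) and 10 otherwise. In hrde-2 over hrde-1 the number was 2 with total counts alone and in the fit of the mutants only, 1 with no filter, and 0 to 2 when 1 library was left out. Pairing of libraries by replicate number was weak at most. Deviations of same-numbered libraries correlated from -0.049 to 0.116, and those of differently numbered libraries from -0.133 to 0.062. With a replicate block all 10 were called in both comparisons with wild-type, and 1 (fbxc-2, adjusted p 0.0126, edgeR) in hrde-2 over hrde-1. The log2 ratio of row sums in CPM was -1.21 for hrde-1 over wild-type (-1.36 to -1.12 with 1 library left out), -0.74 for hrde-2 over wild-type (-0.80 to -0.68) and 0.47 for hrde-2 over hrde-1 (0.37 to 0.61), and it moved by less than the replicate spread under each other setting. No value could be had from members with 10% or fewer repeated windows, since there were 0. H3K9me3 over IgG in wild-type was 2.496 without rRNA and mitochondrial genes, against 3.36.

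Over all genes, calls were 328 in hrde-1 over wild-type and 249 in hrde-2 over wild-type with no filter, 92 in hrde-2 over wild-type after thinning, and 224 in hrde-2 over hrde-1 with the mutants only, against 218, 142 and 127. Leaving out 1 library gave 95 (without hrde-1 replicate 1) to 301 (without wild-type replicate 3), 50 (without hrde-2 replicate 2) to 205 (without wild-type replicate 1) and 76 (without hrde-1 replicate 1) to 186 (without wild-type replicate 3). For the other fbxc genes DESeq2 called 2 in hrde-1 over wild-type, and with total counts alone the median was -0.0170 in hrde-2 over wild-type and 0.13 in hrde-2 over hrde-1. The neighbour Y55F3BR.1 changed sign in hrde-1 over wild-type without wild-type replicate 3 (0.025; values from -0.36 to 0.025 with 1 library left out). The causes were not tested. Among the 8 fully repeated members, copies with the same exon bases cannot be told apart by reads of this length that lie wholly within exons. The IgG counts (9 to 53 over the row) limit any statement on background.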
